A study of Mus musculus with 9 samples.

Results

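Filaggrin, its relatives fused to an S100 domain and the genes that build the cornified layer were followed in mouse back skin under imiquimod (IMQ) and under IMQ with a bergapten gel. The 10 genes were taken by symbol from the deposited table of 56859 genes: Flg, Flg2, Hrnr, Rptn, Crnn, Ivl, Casp14, Tgm1, Tgm3 and Asprv1, each of which matched 1 row. RNA sequencing was done on total RNA from shaved back skin of wild-type BALB/c mice, held free of specific pathogens and aged 6 to 8 weeks, in 3 groups of 3 libraries. The controls received vaseline for 7 days, the IMQ group received IMQ for 7 days, and the bergapten group received IMQ for 7 days and a bergapten gel for 2 days. IMQ is a Toll-like receptor 7 agonist used as a cream to induce psoriasis-like inflammation in mice, and bergapten is a furanocoumarin from plants. No IMQ group with an empty gel is described, and the labels do not say when tissue was taken or how long after the last application. They also do not say whether each replicate is an animal of its own, so the spread behind the p-values may be partly or wholly technical.

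Epidermal keratinocytes end their life as flattened, dead corneocytes. On the way, granular cells store profilaggrin in keratohyalin granules, transglutaminases crosslink involucrin, loricrin and other precursors into an envelope under the membrane, and proteases cut profilaggrin into filaggrin, which bundles keratin and is later broken down to free amino acids that hold water. Loss of filaggrin underlies ichthyosis vulgaris and predisposes to atopic dermatitis in people, and a disturbed granular layer is a feature of psoriatic skin.

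IMQ skin held more RNA of most of these genes than vaseline skin. Of the 10 genes, 9 rose, counting Crnn, which entered the test only through its IMQ counts, and 0 fell in edgeR's quasi-likelihood test at a Benjamini-Hochberg adjusted p under 0.05, where 43.2% of the 18005 genes tested were called, 23% as higher and 20.2% as lower. At an unadjusted p under 0.05, 1 gene fell (Flg2), and by an adjusted p under 0.05 0 did with DESeq2, which gave Flg2 no adjusted p, and 1 (Flg2) with limma on FPKM. Flg2 was the exception: it was lower in every IMQ library than in any vaseline library but did not pass the edgeR test. The median log2 fold change over the 10 genes was 2.38, against 0.03 over all genes tested. The groups did not overlap for 9 genes that were higher in IMQ and 1 that was lower, while 52.3% of all genes tested had groups that did not overlap (26.9% higher and 25.4% lower). In bulk skin, a change in the number of cells of a type and a change in RNA per cell cannot be told apart.

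In the bergapten group, 8 of the 10 genes did not pass the test against IMQ alone, 1 rose (Rptn) and 1 fell (Tgm1), where 4.83% of genes tested were called (2.18% higher, 2.65% lower). The median log2 fold change of the 10 was -0.13 and that of all genes tested -0.005. Groups did not overlap for 1 gene that was higher and 2 that were lower (Crnn and Tgm1), against 26.4% of all genes tested (13.3% higher, 13.2% lower). For Crnn the nearest libraries of the groups held only 11 and 13 counts. Against vaseline, the bergapten group had 8 genes that rose and 1 that fell (Flg2), where 40.4% of genes tested were called (20.9% higher, 19.5% lower), and the median of the 10 was 2.46 against 0.007 over all genes. Here 9 genes were higher without overlap and 1 was lower, against 59.2% of all genes tested (30% higher, 29.2% lower). The 3 comparisons share libraries, so their values stand side by side and are not independent of each other.

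Raw reads per library numbered 42017796 to 53491700, and 15855439 to 19862905 of them were assigned to genes. The 10 genes together took 0.123% to 0.137% of counted reads in vaseline, 0.275% to 0.631% in IMQ and 0.342% to 0.523% in the bergapten group. All 10 passed the filter on low counts, Crnn through its counts in the IMQ group. The 16 markers of basal and junctional keratinocytes were all measured, as fits the labelled tissue, and their summed level was 8083 to 8723 CPM (counts scaled to the normalised library size) in vaseline, 17034 to 18450 in IMQ and 15692 to 19396 in the bergapten group. In IMQ against vaseline, 12 of the 16 rose and 1 fell. The summed level of 8 suprabasal markers was 5588 to 6129 CPM in vaseline, 10900 to 21118 in IMQ and 16135 to 20731 in the bergapten group, with 4 that rose and 1 that fell in IMQ. The summed level of 7 fibroblast markers was 107251 to 115381 CPM in vaseline, 9225 to 21792 in IMQ and 25512 to 33164 in the bergapten group, with 6 that fell in IMQ and 1 that rose. Markers of other cell types shifted too in IMQ against vaseline: 9 of 10 neutrophil markers rose and 1 fell (summed level 44.5 to 63.3 CPM in vaseline, 3855 to 9645 in IMQ), and 5 of 7 T cell markers rose (26.9 to 31.3 against 48.8 to 76.7). All 7 sebaceous gland markers fell (4796 to 7049 CPM in vaseline, 882 to 1980 in IMQ), as did 6 of 7 of skeletal muscle (13054 to 14501 against 3457 to 4489) and 1 of 5 of adipocytes (1648 to 1754 against 649.0 to 2148), while 4 of 7 macrophage markers rose (1441 to 1733 against 1784 to 2804). The part of these shifts in the values below was not tested.

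**Figure D1:**
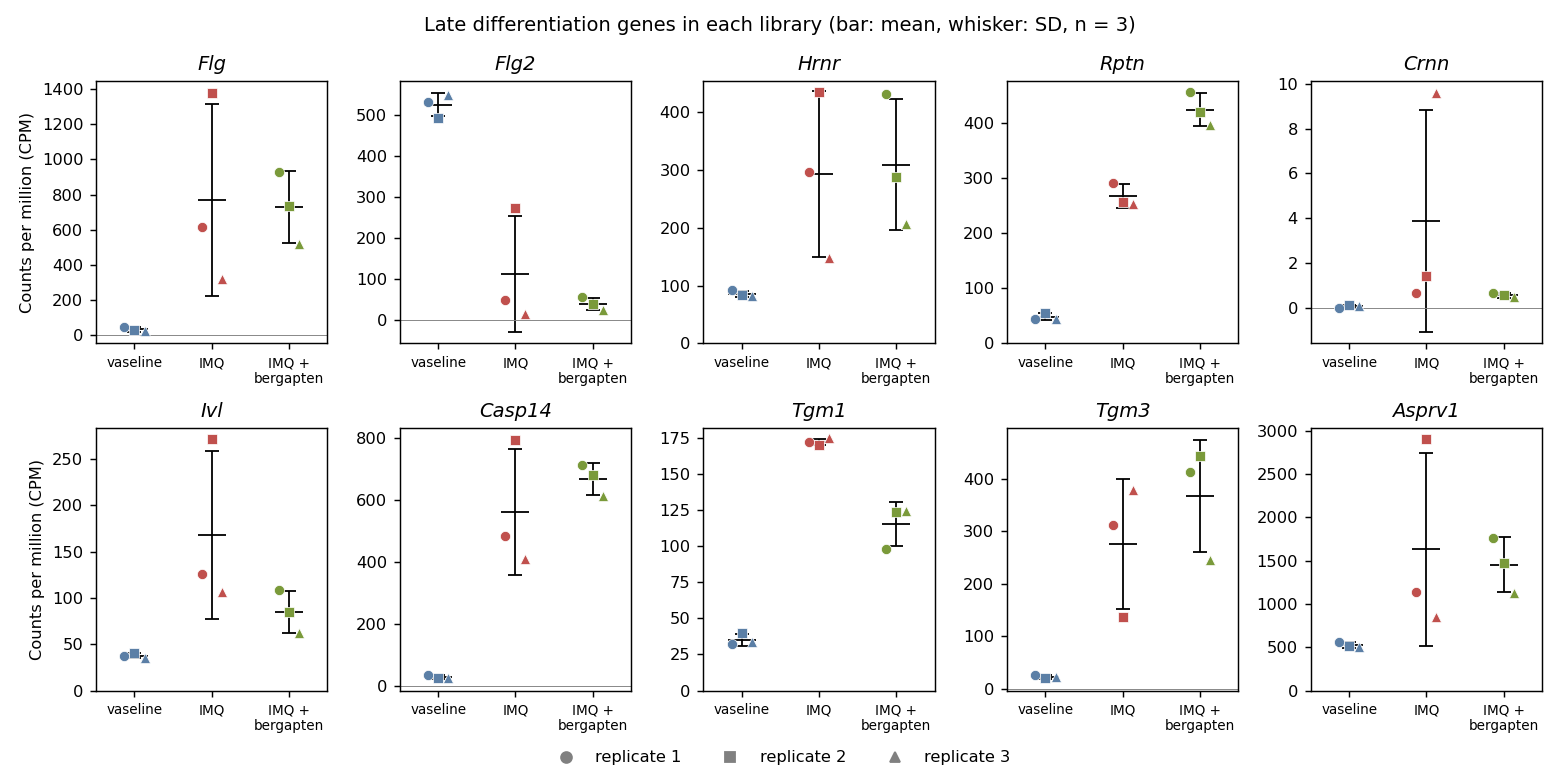
CPM (vertical axis, linear, own scale per panel) of each of the 10 genes in each library by group; symbols are replicates 1 to 3, bars are group means and whiskers SDs (n = 3). Flg2 is the only panel in which vaseline lies highest, and Tgm1 and Rptn are the panels in which the IMQ libraries lie close together.

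On chromosome 3, 6 of the genes lie in the epidermal differentiation complex, a cluster of genes for the cornified layer. From the start of Ivl to the end of Rptn they span 828.5 kb on GRCm39, in the order Ivl (92478209 to 92481042, minus strand), Crnn (93052094 to 93057126), Flg2 (93104585 to 93128698), Flg (93180830 to 93200993), Hrnr (93227056 to 93240877) and Rptn (93301006 to 93306749), the last 5 on the plus strand. Only 52.1 kb lie between Flg2 and Flg, and 26.1 kb between Flg and Hrnr. Flg2, the gene that was lower, lies between Crnn and Flg, both higher in every IMQ library than in any vaseline library. Next to Rptn lie Tchh and Tchhl1, which complete the list of 7 S100-fused genes, and further out lies Lor, the gene of loricrin. In IMQ against vaseline, 5 of the 7 S100-fused genes rose and 0 fell, with a median log2 fold change of 2.94. All but Tchh and Tchhl1 are among the 10 genes, so this count largely repeats theirs. Of those 2, 1 rose (Tchhl1) and 0 fell, and the median is the value of Tchhl1. At an unadjusted p under 0.05, 6 of the 7 rose and 1 fell (Flg2), DESeq2 gave 5 and 0, and limma on FPKM 4 and 1. Of all genes tested, 23% rose and 20.2% fell in that comparison. Crnn among the 5 entered the test only through its IMQ counts, and Tchhl1 only through treated libraries. Tchhl1 had 0, 1 and 4 counts in vaseline, 14, 5 and 28 in IMQ and 12, 10 and 12 with bergapten. Both calls are given as a description and not as support for a rise. Lor, on the far side of Ivl, had a log2 fold change of 0.40 (SE 0.55, edgeR adjusted p = 0.592) in IMQ and -0.22 (SE 0.55, edgeR adjusted p = 0.777) with bergapten, both against vaseline.

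**Figure D2:**
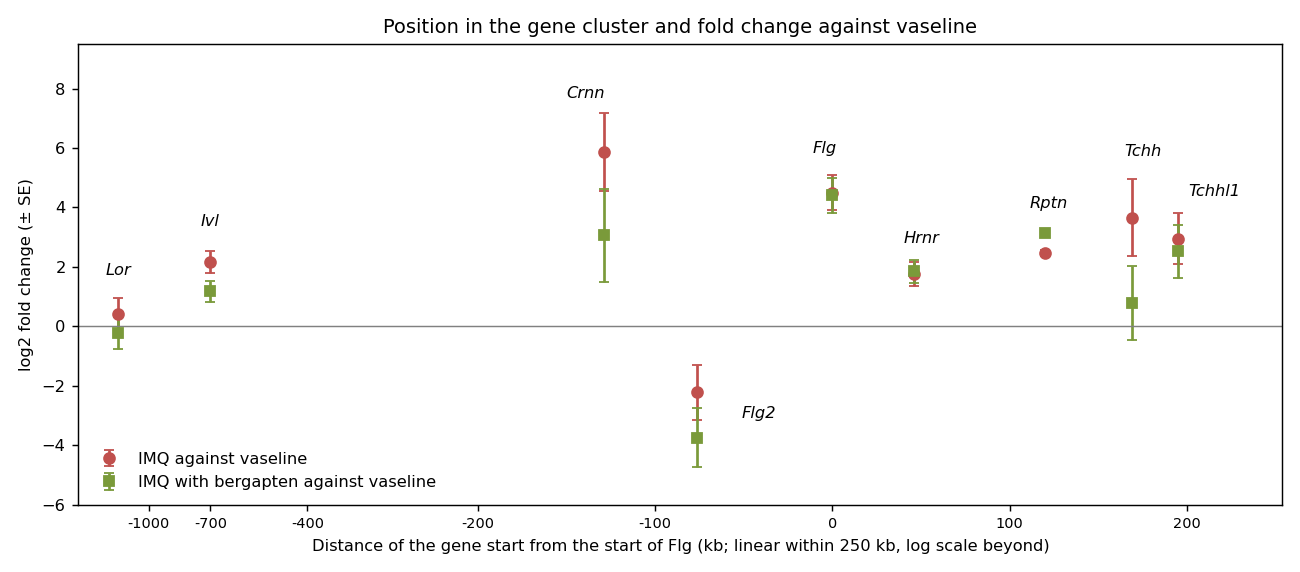
Log2 fold change against vaseline (vertical axis, with SE) for 9 genes of the chromosome 3 cluster, by the distance of their start from that of Flg in kb (horizontal axis, linear near Flg and on a log scale farther out); circles are IMQ and squares IMQ with bergapten. Flg2 sits below 0 at -76.2 kb, while Crnn at -128.7 kb and Flg at 0 kb sit above it.

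The proximal promoters of the chromosome 3 genes are shown because 5 of the 6 match TGANTCA close to the same distance from the start. This pattern is a loosened form of the site of AP-1 (dimers of Jun and Fos proteins), which has C or G in the middle. Only the Ivl match (TGACTCA) has such a letter there, while Flg, Flg2 and Crnn have TGAATCA and Rptn has TGATTCA. All 10 genes matched the RefSeq promoter table (GRCm38.p6; 250 bases before to 50 after each start). The pattern TGANTCA, with any letter in the middle, reads the same on both strands. It stood in the windows of Crnn, Flg, Flg2, Ivl and Rptn and in 7.81% of all 32851 promoter windows. Of the 5 windows of the 4 genes on other chromosomes, 0 held it. All 5 matches began between 116 and 69 bases before the start (-116 to -69), a range set by the outermost of these matches themselves, and 1.57% of all windows held a match there, which is given as a description only. Each stretch below has 30 bases on either side of the match, which is in capitals, and runs 5′ to 3′ on the gene's strand.
Flg: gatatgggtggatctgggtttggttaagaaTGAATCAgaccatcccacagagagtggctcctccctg
Flg2: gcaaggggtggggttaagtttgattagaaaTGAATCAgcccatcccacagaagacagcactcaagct
Rptn: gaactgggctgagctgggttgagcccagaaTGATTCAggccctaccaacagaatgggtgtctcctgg
Crnn: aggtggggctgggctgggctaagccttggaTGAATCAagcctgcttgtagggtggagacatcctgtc
Ivl: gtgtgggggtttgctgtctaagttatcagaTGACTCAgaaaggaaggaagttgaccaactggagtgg
Hrnr: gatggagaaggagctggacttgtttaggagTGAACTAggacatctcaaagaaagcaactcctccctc
On GRCm38.p6 these are chr3:93273413-93273479 (Flg), chr3:93197174-93197240 (Flg2), chr3:93393573-93393639 (Rptn), chr3:93144663-93144729 (Crnn), chr3:92573815-92573881 (Ivl, minus strand) and chr3:93319641-93319707 (Hrnr).

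With the matches aligned, Flg and Flg2 had the same letter at 42 of 67 positions and Flg and Rptn at 41 of 67, while Flg and Ivl shared 22 of 67. The Hrnr window held no match. Its stretch is the best ungapped placement of the Flg stretch, with 45 of 67 letters identical, and the capitals mark the 7 letters aligned with the Flg match. The Flg window holds the stretch itself, and the level of 45 of 67 was set by Hrnr. No other of the 32851 windows had a placement this good. Flg and Flg2 shared the letters of the match (TGAATCA) and much of the flanks, while Flg was higher and Flg2 lower in every treated library than in any vaseline library. A further 3 motifs were searched on both strands. GGGNGG (letters bound by Krüppel-like factors) stood in the windows of all 10 genes and in 68.6% of all windows, CANNTG (E-box) in those of 7 genes and 72.3% of all windows, and GATAAG (letters bound by the zinc finger factors of the Gata family) in that of Flg2 alone among the 10 and in 7.44% of all windows. These are matches of letters, and no binding was measured.

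Flg encodes profilaggrin. Its level was 47.5, 28.8 and 26.3 CPM in the vaseline libraries, 613.7, 1376.2 and 319.0 CPM in the IMQ libraries and 926.4, 734.6 and 518.1 CPM with bergapten. Every IMQ-treated library lay above every vaseline library, and the bergapten libraries lay within the IMQ range. Flg rose in IMQ by a log2 fold change of 4.49 (SE 0.58, edgeR adjusted p = 0.000548), and with bergapten it stood 4.41 above vaseline (SE 0.58, edgeR adjusted p = 0.000674). Without IMQ replicate 2 the IMQ value was 3.77 (edgeR adjusted p = 0.00075). Between bergapten and IMQ the log2 difference was -0.08, with a 95% interval of -1.25 to 1.08 (edgeR adjusted p = 0.943), and its sign turned to 0.64 without IMQ replicate 2. Such intervals are for a single gene and are not adjusted for the number of genes.

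Flg2 encodes filaggrin-2, a relative with similar repeats that is found in the cornified layer. Its level was 531.1, 492.7 and 548.3 CPM in vaseline, 48.9, 273.2 and 14.9 CPM in IMQ and 54.8, 38.9 and 23.4 CPM with bergapten. The vaseline libraries lay close together and above all others, and IMQ replicate 2 lay far above the other IMQ libraries. The log2 fold change in IMQ was -2.22 (SE 0.93, 95% interval -4.40 to -0.04, edgeR adjusted p = 0.0924). Without IMQ replicate 2 it was -4.04 (edgeR adjusted p = 0.00409). Flg2 fell with bergapten against vaseline (log2 fold change -3.75, SE 1.00, edgeR adjusted p = 0.0203), a call that was lost without bergapten replicate 2 (-3.78, edgeR adjusted p = 0.0622) or replicate 3 (-3.51, edgeR adjusted p = 0.0612). The bergapten group differed from IMQ by -1.52 (95% interval -3.68 to 0.63, edgeR adjusted p = 0.378), and 0.29 without IMQ replicate 2.

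The balance of the filaggrin genes was followed within each library, which removes differences in depth. Flg2 counts exceeded Flg counts 11.2-fold, 17.0-fold and 20.8-fold in the vaseline libraries. In IMQ, Flg counts exceeded Flg2 counts 12.5-fold, 5.04-fold and 21.2-fold, and with bergapten 16.9-fold, 18.8-fold and 22-fold. These ratios are not corrected for length, and the longest annotated transcript has 14497 bases for Flg and 20803 for Flg2. They therefore compare the groups, and not the levels of Flg and Flg2 per length. The log2 ratio of Flg2 to Flg was 3.98 ± 0.46 (SD, n = 3) in vaseline, -3.46 ± 1.05 in IMQ and -4.26 ± 0.19 with bergapten, with the IMQ and bergapten ranges overlapping. This ratio was chosen after its values were seen and is given without a test.

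**Figure D3:**
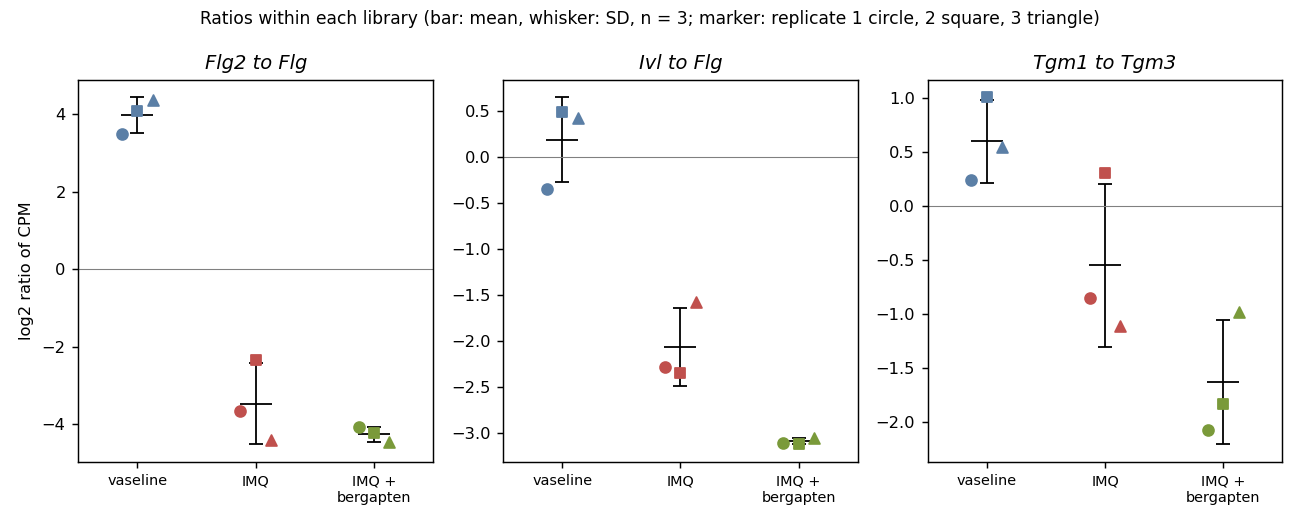
Log2 ratio of CPM within each library (vertical axis) for Flg2 to Flg, Ivl to Flg and Tgm1 to Tgm3, by group; symbols are replicates 1 to 3, bars are means and whiskers SDs (n = 3). Flg2 to Flg lies at 3.48 to 4.38 in vaseline and below 0 in all other libraries, and Ivl to Flg falls into 3 ranges that do not overlap.

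Hrnr and Rptn encode hornerin and repetin, repeat proteins of the cornified envelope. Hrnr stood at 91.7, 83.4 and 82.1 CPM in vaseline, 295.9, 434.1 and 146.9 CPM in IMQ and 431.1, 288.3 and 207.2 CPM with bergapten. All treated libraries were above all vaseline libraries, and the IMQ and bergapten ranges overlapped widely. Hrnr rose in IMQ by 1.77 (SE 0.40, edgeR adjusted p = 0.00807) and with bergapten by 1.85 (SE 0.40, edgeR adjusted p = 0.00726) on the log2 scale, both against vaseline. From IMQ to bergapten the difference was 0.08 (95% interval -0.81 to 0.97, edgeR adjusted p = 0.929), and its sign turned without IMQ replicate 3 or bergapten replicate 1 (-0.24 in each case).

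Rptn rose in IMQ and was higher again with bergapten. It stood at 45.1, 55.6 and 44.4 CPM in vaseline, 291.8, 256.6 and 252.7 CPM in IMQ and 455.6, 420.4 and 396.7 CPM with bergapten. The 3 groups did not overlap, and the spread within each was narrow. The rise in IMQ was 2.46 on the log2 scale (SE 0.11, edgeR adjusted p = 6.31e-07), and the rise from IMQ to bergapten 0.67 (SE 0.11, 95% interval 0.43 to 0.91, edgeR adjusted p = 0.0124). Without bergapten replicate 1 the latter was 0.61 and missed the threshold (edgeR adjusted p = 0.0647). Against vaseline the bergapten group was higher by 3.13 (SE 0.12, edgeR adjusted p = 2.27e-07).

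Crnn encodes cornulin, a squamous protein best known from the esophagus. The vaseline libraries held 0, 2 and 1 counts, the IMQ libraries 13, 26 and 189, and the bergapten libraries 11, 11 and 9. IMQ replicate 3 alone held most of the Crnn counts of the study. The bergapten libraries lay below all IMQ libraries, but only just: bergapten replicate 1 was at 0.657 CPM and IMQ replicate 1 at 0.676 CPM. Over the groups, 228 counts in IMQ stood against 3 in vaseline, a ratio per counted read of 66.6 with an exact 95% interval of 22.5 to 325.3 that covers counting error only. The edgeR adjusted p for Crnn in IMQ was 0.00661, and 0.0324 without the filter on low counts. Because Crnn passed that filter only through the IMQ group, where it was high, its call is given as a description and not as support for a rise. Without IMQ replicate 3 the edgeR adjusted p was 0.00262 and the ratio 17.3 (5.51 to 87.6, from 39 counts against 3). Bergapten against vaseline gave a ratio of 9.21 (2.87 to 47.1) and was not called (edgeR adjusted p = 0.153). Bergapten against IMQ gave 0.138 (0.0919 to 0.202) and was not called either (log2 difference -2.81, edgeR adjusted p = 0.127). That difference was -0.90 (edgeR adjusted p = 0.33) without IMQ replicate 3, and -3.31 and called (edgeR adjusted p = 0.0454) without IMQ replicate 1.

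IMQ replicate 3 also stood apart in hair follicle genes. The summed level of 11 markers of the inner root sheath and medulla was 1076 CPM there, 38.7 and 43.5 CPM in the other IMQ libraries and 56.5 to 71.3 CPM in the vaseline and bergapten libraries. Krt71, a keratin of the inner root sheath, was at 252.8 CPM there against 0.468 and 0.862 in the other IMQ libraries, and Tchh, the gene of trichohyalin, at 309.2 CPM against 14.8 and 10.5. Of these 11 markers 8 were tested, and 3 rose and 1 fell in IMQ against vaseline. Tchh was not called (log2 fold change 3.65, SE 1.29, edgeR adjusted p = 0.0544). The other 4 markers of esophageal-type epithelium summed to 0.254 to 0.932 CPM in all libraries, with 0.254 in IMQ replicate 3, and Sprr3 had 0 counts in every vaseline and IMQ library. The part of the hair follicle genes in the Crnn value of IMQ replicate 3 was not tested.

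Ivl encodes involucrin, the early scaffold of the cornified envelope. Its level was 37.3, 40.3 and 35.2 CPM in vaseline, 125.9, 271.6 and 106.5 CPM in IMQ and 108.1, 85.0 and 62.6 CPM with bergapten. All treated libraries lay above vaseline, and 1 bergapten library lay within the IMQ range. Ivl rose in IMQ by 2.16 on the log2 scale (SE 0.36, edgeR adjusted p = 0.00194). With bergapten it stood 1.18 above vaseline (SE 0.36, edgeR adjusted p = 0.0301), a call that was lost without any single vaseline library (edgeR adjusted p = 0.0742 to 0.0934) and without bergapten replicate 1 or 2 (0.0975 and 0.0779), with values of 0.94 to 1.20. Between bergapten and IMQ the difference was -0.98 (95% interval -1.79 to -0.17, edgeR adjusted p = 0.155), and -0.45 (edgeR adjusted p = 0.247) without IMQ replicate 2.

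Relative to Flg, Ivl was lower in IMQ than in vaseline libraries and lowest in those with bergapten. The log2 ratio of Ivl to Flg was -0.35, 0.48 and 0.42 in the vaseline libraries, -2.28, -2.34 and -1.58 in IMQ, and -3.10, -3.11 and -3.05 with bergapten. The 3 groups did not overlap, and the bergapten libraries were nearly identical. The means were 0.18 ± 0.46 (SD), -2.07 ± 0.42 and -3.08 ± 0.03 in the same order. Each of the 3 differences, -2.25 for IMQ against vaseline, -1.02 for bergapten against IMQ and -3.27 for bergapten against vaseline, had an exact two-sided permutation p of 0.1 (0.1 after Benjamini-Hochberg adjustment over the 3), which is the smallest p that 3 against 3 libraries allow.

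Tgm1 and Tgm3 encode the transglutaminases that crosslink the envelope, the first anchored to the membrane and the other soluble and active after cleavage. Tgm1 (chromosome 14, 55937466 to 55951383, minus strand) stood at 32.1, 39.7 and 33.4 CPM in vaseline, 172.2, 170.4 and 174.6 CPM in IMQ and 97.9, 123.5 and 124.7 CPM with bergapten. The 3 groups did not overlap, with bergapten between the others, and the coefficient of variation in IMQ was 1.23%, against 8.07% to 127.3% for the other 9 genes in IMQ. Tgm1 rose in IMQ by 2.30 on the log2 scale (SE 0.12, edgeR adjusted p = 8.84e-07) and fell by 0.58 from IMQ to bergapten (SE 0.11, 95% interval -0.83 to -0.33, edgeR adjusted p = 0.0225). That fall missed the threshold without bergapten replicate 1 (-0.48, edgeR adjusted p = 0.0778) or replicate 3 (-0.64, edgeR adjusted p = 0.0615). Against vaseline the bergapten group remained higher by 1.72 (SE 0.12, edgeR adjusted p = 5.06e-06).

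Tgm3 (chromosome 2, 129854269 to 129892319, plus strand) stood at 27.1, 19.7 and 22.8 CPM in vaseline, 311.2, 137.1 and 378.0 CPM in IMQ and 413.6, 442.9 and 246.2 CPM with bergapten. All treated libraries were above vaseline, and IMQ and bergapten overlapped. Tgm3 rose in IMQ by 3.57 (SE 0.41, edgeR adjusted p = 0.000252) and with bergapten by 3.98 (SE 0.42, edgeR adjusted p = 0.000183) on the log2 scale. From IMQ to bergapten the difference was 0.42 (95% interval -0.42 to 1.26, edgeR adjusted p = 0.55). Transglutaminase 3 also crosslinks trichohyalin in hair follicles. The highest IMQ value was in replicate 3, where the hair follicle markers were high. Bergapten replicates 1 and 2 held more Tgm3 than that library, with summed inner root sheath and medulla markers of only 63.9 and 56.5 CPM. Without IMQ replicate 3 the rise in IMQ was 3.24 (edgeR adjusted p = 0.00104). The part of the hair follicle genes in the Tgm3 values was not tested. The log2 ratio of Tgm1 to Tgm3, chosen after its values were seen and not tested, was 0.60 ± 0.38 (SD, n = 3) in vaseline, -0.55 ± 0.76 in IMQ and -1.63 ± 0.58 with bergapten.

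Casp14 and Asprv1 encode proteases that act on profilaggrin or its products: caspase-14, and the retroviral-like aspartic protease SASPase. Casp14 (chromosome 10, 78547825 to 78554128, minus strand) stood at 35.0, 26.0 and 25.2 CPM in vaseline, 483.2, 793.8 and 410.0 CPM in IMQ and 714.3, 679.4 and 611.8 CPM with bergapten. All treated libraries were far above vaseline, and the bergapten libraries lay within the IMQ range. Casp14 rose in IMQ by 4.29 on the log2 scale (SE 0.27, edgeR adjusted p = 5.88e-06) and with bergapten by 4.54 (SE 0.27, edgeR adjusted p = 6.42e-06). The difference of bergapten from IMQ was 0.25 (95% interval -0.28 to 0.78, edgeR adjusted p = 0.574), and 0.58 (edgeR adjusted p = 0.0455) without IMQ replicate 2.

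Asprv1 (chromosome 6, 86605146 to 86606692, plus strand) stood at 563.6, 510.7 and 503.9 CPM in vaseline, 1135.5, 2907 and 849.2 CPM in IMQ and 1755.8, 1475.7 and 1120.3 CPM with bergapten. All treated libraries were above vaseline, with IMQ replicate 2 the highest of all. Its rise in IMQ, 1.63 on the log2 scale (SE 0.43, edgeR adjusted p = 0.0163), was 0.92 (edgeR adjusted p = 0.00362) without IMQ replicate 2, and it missed the threshold without vaseline replicate 2 (1.58, edgeR adjusted p = 0.0547) or replicate 3 (1.57, edgeR adjusted p = 0.0548). With bergapten it rose by 1.46 against vaseline (SE 0.43, edgeR adjusted p = 0.0268), which was lost without any single vaseline library (edgeR adjusted p = 0.0677 to 0.0813) and without bergapten replicate 1 or 2 (0.0781 and 0.0693), with values of 1.27 to 1.48. The difference of bergapten from IMQ was -0.17 (95% interval -1.14 to 0.80, edgeR adjusted p = 0.854), and 0.55 without IMQ replicate 2.

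**Figure D4:**
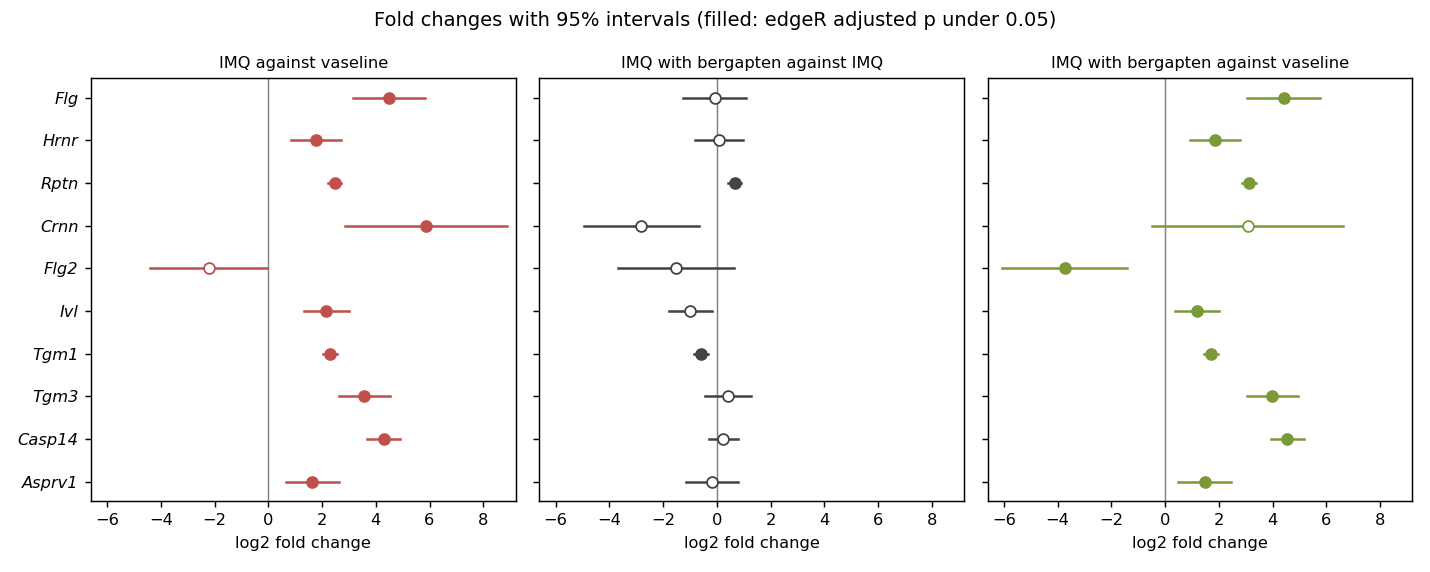
Log2 fold change (horizontal axis) with 95% interval for the 10 genes in each of the 3 comparisons; filled points passed edgeR's adjusted p of 0.05. In the middle panel, bergapten against IMQ, only Rptn at 0.67 and Tgm1 at -0.58 are filled.

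Libraries within a treated group differed in a shared order for many of the genes. In IMQ, the order replicate 2, then 1, then 3, from high to low, held for Flg, Flg2, Hrnr, Ivl, Casp14 and Asprv1, and the summed suprabasal markers had it too, at 21118, 15632 and 10900 CPM. Tgm3 had the opposite order, and Rptn and Tgm1 varied little. With bergapten, replicate 1 was the highest for 8 of the 10 genes and replicate 3 the lowest for 9, with summed suprabasal markers of 20731 CPM in replicate 1, 16439 in replicate 2 and 16135 in replicate 3. In vaseline the highest-to-lowest ratio stayed between 1.11 and 1.81 for the 9 genes other than Crnn, whereas in IMQ it was 18.3 for Flg2, 4.31 for Flg and 1.02 for Tgm1. The part of the suprabasal marker level in the differences between libraries was not tested.

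Levels between genes were compared per length, on the authors' FPKM values (fragments scaled to transcript length and sequencing depth). In vaseline, Asprv1 was at 327.7 ± 23.0 FPKM (SD, n = 3), Flg2 at 24.3 ± 1.54, Ivl at 18.8 ± 1.12, Casp14 at 11.9 ± 2.36, Tgm1 at 11.8 ± 1.25, Rptn at 11.2 ± 1.34, Hrnr at 7.39 ± 0.505, Tgm3 at 5.41 ± 0.917, Flg at 2.28 ± 0.79 and Crnn at 0.0325 ± 0.0334. Casp14, Tgm1 and Rptn did not differ beyond their spread there, while all other neighbours in that order had ranges apart. In IMQ the order was Asprv1 (1035 ± 661), Casp14 (238.6 ± 75.4), Ivl (86.2 ± 42.3), Tgm3 (67.5 ± 32.3), Rptn (64.5 ± 6.5), Tgm1 (60.5 ± 3.21), Flg (52.1 ± 34.8), Hrnr (25.8 ± 11.8), Flg2 (5.22 ± 6.38) and Crnn (2.13 ± 2.76). There only Asprv1 from Casp14, Casp14 from Ivl and Hrnr from Flg2 were neighbours with ranges apart. With bergapten the order was Asprv1 (970.7 ± 225.3), Casp14 (295.9 ± 26.2), Rptn (105.8 ± 9.03), Tgm3 (91.9 ± 26.4), Flg (51.9 ± 15.3), Ivl (45.9 ± 12.9), Tgm1 (41.7 ± 4.82), Hrnr (28.6 ± 11), Flg2 (1.95 ± 0.812) and Crnn (0.308 ± 0.0598), and the neighbours from Rptn to Hrnr overlapped. Flg2 thus went from place 2 in vaseline to place 9 in both treated groups, and Casp14 from place 4 to place 2.

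The repeats of the filaggrin-like genes bear on these levels. In the longest annotated transcript (GENCODE M21), 62.4% of the 150-base windows of Flg, 46.2% of those of Flg2 and 66.2% of those of Hrnr occurred more than once within the same transcript, and 0% occurred in the transcript of another gene. The other 7 genes had no repeated window, and Tgm1 shared 1.26% of its windows with the antisense gene Gm49067. How reads that align to several places were counted is not given in the sources used here, nor is the use of strand. Genes that overlap a member had few counts, at most 1.357% of those of the member (Rplp0-ps1 within Flg).

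Of the 17 genes listed for filaggrin processing and breakdown, 11 rose and 2 fell in IMQ against vaseline, and without Casp14 and Asprv1, 9 of 15 rose and 2 fell, where 23% of all genes tested rose and 20.2% fell. The median log2 fold change of the 15 was 0.55, against 0.03 over all genes tested. Of the 9, Padi1 and Padi3 entered the test only through treated libraries, and their calls are given as a description only. Padi3 stood at 0.209 ± 0.217 CPM in vaseline and 4.4 ± 6.62 CPM in IMQ (SD, n = 3; edgeR adjusted p = 0.0394). It is also among the hair follicle markers whose summed level was high in IMQ replicate 3. Blmh, the bleomycin hydrolase that helps to break filaggrin down to amino acids, went from 100.6 ± 5.22 to 583.6 ± 28.6 CPM (SD, n = 3; log2 fold change 2.54). It stayed at 550.2 ± 50 CPM with bergapten. Furin, a proprotein convertase, rose by 0.97 (SE 0.09, edgeR adjusted p = 2.96e-05), and Tmem79, the gene of mattrin, rose by 1.28 (SE 0.13, edgeR adjusted p = 3.45e-05). Padi1, a peptidylarginine deiminase that citrullinates filaggrin and keratins, had 0.0436 ± 0.0755 CPM in vaseline and 2.43 ± 0.575 CPM in IMQ (edgeR adjusted p = 0.000102). Those that fell were Padi2 (log2 fold change -0.76, SE 0.26, edgeR adjusted p = 0.0358), and Hal, the histidase that turns filaggrin's histidine into urocanic acid (-1.03, SE 0.34, edgeR adjusted p = 0.0373).

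Between bergapten and IMQ, 0 of the 17 processing genes passed edgeR's test, and their median log2 fold change was -0.22. With 4.83% of all genes tested called, a count of 0 in a list of 17 lies near the background. DESeq2 and limma on FPKM called 0 as well, and at an unadjusted p under 0.05, 1 was higher (Capn1) and 5 were lower (Furin, Padi3, Padi4, Ppp2r2a and St14), names given only for that count. Against vaseline, 10 rose and 1 fell (Hal, log2 fold change -0.97, SE 0.34, edgeR adjusted p = 0.0486) in the bergapten group. Without Casp14 and Asprv1, 8 of 15 rose and 1 fell, where 20.9% of all genes tested rose and 19.5% fell. Casp14, Blmh and Padi1 stood above vaseline in both treated groups, and Hal below it.

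**Figure D5:**
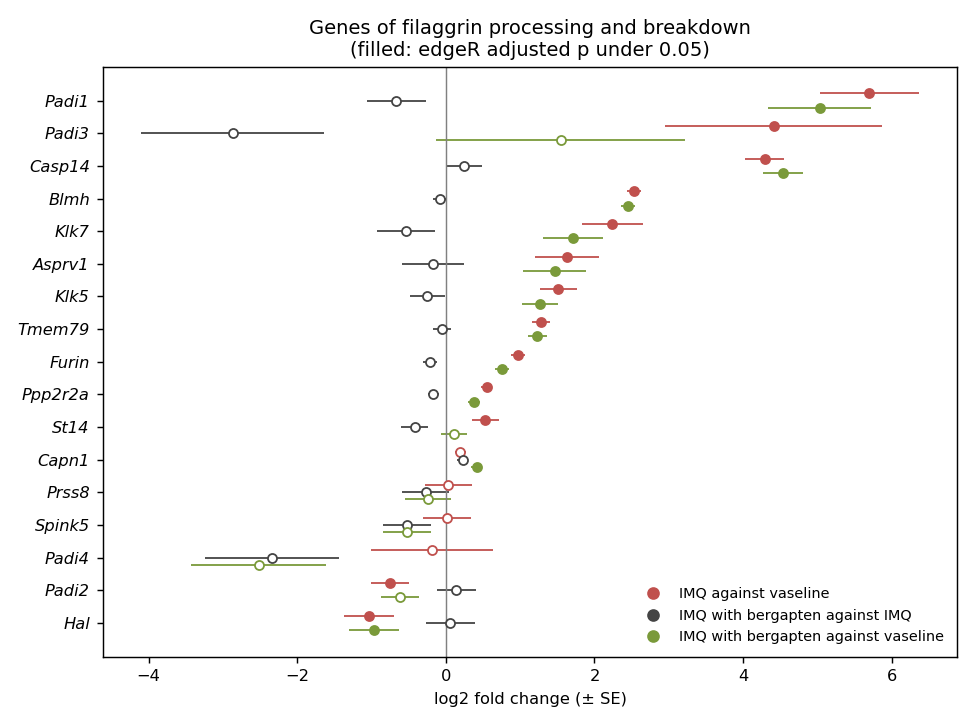
Log2 fold change with SE (horizontal axis) of the 17 genes of filaggrin processing and breakdown in the 3 comparisons; filled points passed edgeR's adjusted p of 0.05. No point for bergapten against IMQ is filled. Fitted values of Padi1 and Padi3, with few or no counts in vaseline, depend on the prior count.

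Of 22 measured genes listed for envelope precursors and crosslinking, which include Ivl, Tgm1 and Tgm3, 11 rose and 2 fell in IMQ against vaseline, where 23% of all genes tested rose and 20.2% fell, and their median was 0.78. Without those 3 genes, 8 of 19 rose and 2 fell. Cnfn, the gene of cornifelin, went from 21.5 ± 1.43 to 357.3 ± 59.3 CPM (SD, n = 3; log2 fold change 4.05). Krt1, a keratin of suprabasal cells, rose by 2.57 (SE 0.19, edgeR adjusted p = 8.51e-06), and Tgm5, a further epidermal transglutaminase, by 1.32 (SE 0.10, edgeR adjusted p = 8.99e-06). Those that fell were Krt2 and Lce1m. Krt2, a late suprabasal keratin, went from 24.1 ± 13.5 to 0.339 ± 0.587 CPM (edgeR adjusted p = 0.00124). Lce1m, a late envelope gene, went from 243.1 ± 16.1 to 36.6 ± 31.3 CPM (edgeR adjusted p = 0.0179). Krt2 passed the filter on low counts through its vaseline libraries, where it was high, so its calls are given as a description only. From IMQ to bergapten, 0 rose and 1 fell in edgeR's test, which was Tgm1 (DESeq2 0 and 2, limma on FPKM 0 and 1, and at an unadjusted p under 0.05, 1 and 4), which is near the 4.83% called over all genes tested. Against vaseline, 10 rose and 2 fell with bergapten, where 20.9% of all genes tested rose and 19.5% fell. Without Ivl, Tgm1 and Tgm3, 7 of 19 rose and 2 fell. Those that fell were again Krt2, given as a description only (0.403 ± 0.221 CPM), and Lce1m (17.3 ± 9.88 CPM).

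Of 22 transcription factors listed for late differentiation, 15 rose and 2 fell in IMQ against vaseline, where 23% of all genes tested rose and 20.2% fell, and their median was 0.57. Grhl3, a grainyhead-like factor needed for the skin barrier, rose by 2.47 (SE 0.14, edgeR adjusted p = 1.39e-06). Prdm1, which encodes the repressor Blimp-1, rose by 1.44 (SE 0.15, edgeR adjusted p = 5.19e-05). Gata3 (log2 fold change -0.85, SE 0.20, edgeR adjusted p = 0.00708) and Ovol2 (-0.92, SE 0.33, edgeR adjusted p = 0.0482) fell. From IMQ to bergapten, 0 rose and 1 fell in edgeR's test (DESeq2 0 and 4, limma on FPKM 0 and 0, and at an unadjusted p under 0.05, 0 and 7), near the 4.83% called over all genes tested. Cebpb, a basic leucine zipper factor and the 1 that fell, went from 10.6 ± 5.49 to 4.17 ± 0.549 CPM (SD, n = 3; vaseline 3.94 ± 0.717). Its edgeR adjusted p was 0.0499, just under the threshold. Against vaseline, 14 rose and 0 fell with bergapten in edgeR's test (DESeq2 14 and 1, limma on FPKM 15 and 0, and at an unadjusted p under 0.05, 14 and 1). Of all genes tested, 20.9% rose and 19.5% fell there in edgeR's test.

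The genes whose log2 CPM ran most alike over the 9 libraries were found for 4 members by Pearson's r, as a description that includes the differences between the groups. For Flg they were Lgals7 (r = 0.994), which encodes galectin-7 of stratified epithelia, Il1f5 (0.988), which encodes the antagonist of the interleukin-36 receptor, and Nipal1 (0.988). For Ivl they were Rbbp6 (0.992), Mindy3 (0.99) and Spin1 (0.985). For Tgm1 they were Ptpn1 (0.998), Fam43a (0.996) and Rtcb (0.996). For Crnn, whose counts were low, they were Wdr73 (0.966), Pinx1 (0.957) and Tacr1 (0.956).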

How the data were processed

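Per the submitters' processing notes, Trimmomatic, HISAT2 and HTSeq 0.6.0 were used with GRCm39. Sequencing libraries took 1.3 µg of RNA each, per the labels' protocols. The deposited table gives unscaled read counts per library and FPKM values computed by the authors, whose implied gene lengths are those of single transcripts. The deposited quality sheet gives raw reads, mean quality scores, and GC, Q20 and Q30 as percent. Rows naming no gene (2 of 56861) were left out. No source states how multiply aligned reads or strand were treated.

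A model with 1 mean per group was fitted to the counts of the 9 libraries in edgeR 4.0.16 under R 4.3.3 (robust quasi-likelihood F test, TMM). filterByExpr (count 10 or more, total 15 or more) left 18005 genes. Two-sided p-values received Benjamini-Hochberg adjustment across these genes, and calls were made at 0.05. The SE is the absolute log2 fold change over the square root of F. The spread was shared between groups (common biological coefficient of variation 0.187), although the variance of log2 CPM averaged 0.238 within IMQ, 0.10 within vaseline and 0.102 within the bergapten group. Ratios within libraries used log2 CPM with a prior count of 2 and an exact permutation test. Counting intervals are exact, at 95%, and cover counting error only. Replicates differed by 10.85 to 80.01 times the variance of counting, so no pair agreed within sampling noise, which does not tell repeat preparations of 1 RNA from separate samples. The fit was also run on simulated counts that gave all genes and groups the same spread, which these libraries do not have. No result here rests on that run.

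The genes and lists were chosen with earlier results of these data known. Beside the 10 genes, up to 4 genes per list and comparison with the smallest p could be named, and the 3 genes most correlated with Flg, Ivl, Tgm1 and Crnn among those with a mean of at least 1 CPM. Promoter windows are from RefSeq (GRCm38.p6), whose coordinates differ from those of the deposited table. Alternatives were RLE size factors, DESeq2 1.42.0, no filter, a filter at 1 CPM in 3 libraries, a fit of the 6 libraries compared, a replicate block, limma 3.58.1 on log2(FPKM + 1), each library left out, prior counts of 0.5 and 5 and deposited FPKM for the ratios, and exon lengths from GENCODE M21 for the order of levels.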

Additional observations from a re-analysis of the deposited data

How the results depend on the processing

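Under every alternative run, 7 of the 9 rises in IMQ against vaseline kept their call (Casp14, Flg, Hrnr, Ivl, Rptn, Tgm1 and Tgm3), as did 6 of the 8 in bergapten against vaseline (Casp14, Flg, Hrnr, Rptn, Tgm1 and Tgm3). The comparison of bergapten with IMQ depended on the processing. Its calls over all genes numbered 869, but 130 with only the 6 libraries compared, 489 with the replicate block, 1850 with DESeq2 and 139 to 1711 when 1 library was left out, the lowest without bergapten replicate 1 (332 without replicate 2, 176 without replicate 3) and the highest without IMQ replicate 3. Its calls among the 10 genes numbered 2, but 1 with only the 6 libraries (Tgm1 lost, edgeR adjusted p = 0.0644), 4 with DESeq2 (Ivl and Crnn added, DESeq2 adjusted p = 0.0254 and 0.019) and 0 to 3 when 1 library was left out, with 0 without bergapten replicate 1 and 1 without bergapten replicate 3. The sign of log2 differences that were not called turned in the same comparison: Flg was 0.05 with the replicate block, 0.64 without IMQ replicate 2, 0.11 without bergapten replicate 3 and 0.17 with limma on log2(FPKM + 1), Asprv1 was 0.55 without IMQ replicate 2 and 0.06 with limma, Flg2 was 0.29 without IMQ replicate 2, and Hrnr was -0.24 without IMQ replicate 3 or bergapten replicate 1. Over the fits that leave out 1 library, this difference ran from -0.46 to 0.64 for Flg, from -2.05 to 0.29 for Flg2, from -0.24 to 0.48 for Hrnr and from -0.48 to 0.55 for Asprv1. The causes were not tested. The deviations of same-numbered libraries from their group means had correlations of -0.0909 to 0.176. With 3 libraries per group, these values are too few to decide whether the numbers pair the samples. The replicate block left the number of calls among the 10 genes at 9, 2 and 9 in the 3 comparisons. Without the filter on low counts, Asprv1 (edgeR adjusted p = 0.0592) missed the threshold in IMQ against vaseline, and Flg2 (0.0595), Ivl (0.103) and Asprv1 (0.0908) did in bergapten against vaseline. With only the 6 libraries compared, bergapten against vaseline had smaller edgeR adjusted p for Flg2 (0.000748), Ivl (0.00222) and Asprv1 (0.000121). That fit called 8914 of all genes, against 7270 in the main fit. On log2(FPKM + 1), which understates low genes, Crnn in IMQ was 1.25 (limma adjusted p = 0.056) and Flg2 was -2.55 (limma adjusted p = 0.00883). DESeq2 called Crnn in bergapten against vaseline (adjusted p = 0.0224) and gave no adjusted p for Flg2. The filter at 1 CPM removed Crnn. With exon lengths from GENCODE M21, Rptn and Tgm1 changed places in vaseline, and Flg and Ivl with bergapten. Crnn is limited by depth, with 3 counts over the vaseline group.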
